A study of Homo sapiens with 12 samples.

Results

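The 37 genes described here encode proteins that build the mitotic spindle, position it and carry out cytokinesis, together with a few mitotic kinases and the proliferation marker MKI67. They were taken by name from a list of spindle and cytokinesis genes that leaves out kinesins and kinetochore proteins. All 37 were found among the 38997 features present in the count tables of both cell lines. RNA was measured in 92.1 and MP38, established cell lines of uveal melanoma, a tumour of the pigment cells of the eye. The 92.1 groups were cells kept for 72 hours in VE-822 or in its solvent DMSO, and the MP38 groups were cells kept for 72 hours in VE-822 or in DMSO. VE-822 (berzosertib) inhibits ATR, the kinase that answers stalled replication forks and holds back entry into mitosis while DNA is damaged. Its concentration is not given in the labels, which say only that it was set in each line for a viability of about 40%, so cell line and dose cannot be told apart. Each of the 4 groups had 3 libraries of poly(A) RNA, 12 in all. The labels do not say whether these came from separate cultures, so the p-values speak only to the variation among the libraries measured, some or all of which may be technical.

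A spindle forms when microtubules grow from centrosomes, around chromosomes and from the sides of existing microtubules. The last route needs augmin, the complex of the HAUS proteins, which brings the gamma-tubulin ring complex to spindle microtubules. TPX2, HMMR, ASPM and NUMA1 organise spindle poles, CKAP5 and TACC3 drive microtubule growth and cross-linking, and PRC1, RACGAP1, ECT2 and ANLN lay down the central spindle and the contractile ring that parts the daughter cells. Many of these genes are transcribed mainly in G2 and mitosis through promoters with CCAAT boxes and a CHR (cell cycle genes homology region) element, with the core letters TTTGAA or, in a variant form, TTCGAA. Their RNA therefore stands in dividing cell populations both for the share of cells near mitosis and for the level in each such cell. In these bulk libraries fewer cells of a kind and less RNA per cell cannot be told apart.

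Stretches before the transcription starts of 8 members are printed to show what the promoters held. They come from RefSeq on GRCh38.p14, run 5' to 3' on the gene's strand, and are the longest run outside exons of GENCODE 29 within the 150 bases before the start. Capitals mark the CHR core TTTGAA, its variant TTCGAA and the box CCAAT on either strand. TTCAAA is the CHR core read on the other strand, and the reverse of the CCAAT box is ATTGG. MKI67 (chr10:128126424-128126573, minus strand), ASPM (chr1:197146695-197146819, minus strand), CIT (chr12:119877321-119877470, minus strand), NEK2 (chr1:211675631-211675761, minus strand), DEPDC1B (chr5:60700191-60700316, minus strand) and CKAP5 (chr11:46846309-46846411, minus strand) changed in opposite directions in the 2 lines. HAUS3 (chr4:2242165-2242271, minus strand) and HAUS5 (chr19:35612667-35612734, plus strand) are augmin genes that changed in 92.1 and did not pass the test in MP38.
MKI67: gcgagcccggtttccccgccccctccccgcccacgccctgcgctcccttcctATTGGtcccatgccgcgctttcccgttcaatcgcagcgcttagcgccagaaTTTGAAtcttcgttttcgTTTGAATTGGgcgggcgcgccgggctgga
ASPM: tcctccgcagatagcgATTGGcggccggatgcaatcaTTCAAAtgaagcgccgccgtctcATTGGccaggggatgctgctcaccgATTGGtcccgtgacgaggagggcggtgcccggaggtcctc
CIT: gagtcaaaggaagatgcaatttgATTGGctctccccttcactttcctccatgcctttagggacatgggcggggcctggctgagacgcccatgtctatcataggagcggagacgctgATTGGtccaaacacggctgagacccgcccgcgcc
NEK2: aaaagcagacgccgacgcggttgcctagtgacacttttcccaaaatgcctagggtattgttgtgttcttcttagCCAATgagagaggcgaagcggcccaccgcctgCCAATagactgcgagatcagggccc
DEPDC1B: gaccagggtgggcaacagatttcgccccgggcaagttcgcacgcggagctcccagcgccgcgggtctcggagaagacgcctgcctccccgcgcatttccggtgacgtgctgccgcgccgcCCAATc
CKAP5: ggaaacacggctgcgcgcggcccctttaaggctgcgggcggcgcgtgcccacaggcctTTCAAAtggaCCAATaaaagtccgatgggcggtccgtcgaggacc
HAUS3: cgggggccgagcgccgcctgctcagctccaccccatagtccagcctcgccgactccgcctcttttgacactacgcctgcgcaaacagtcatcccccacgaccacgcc
HAUS5: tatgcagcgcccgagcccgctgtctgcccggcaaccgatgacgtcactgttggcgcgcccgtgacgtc
The MKI67 stretch held 2 CHR cores and 2 CCAAT boxes, and the second CHR core shares 1 base with a CCAAT box read on the other strand. The ASPM stretch held 1 CHR core among 3 CCAAT boxes, and the CKAP5 stretch held 1 of each. The CIT and NEK2 stretches held 2 CCAAT boxes each and no CHR core, and the DEPDC1B stretch held 1 CCAAT box; the CHR cores of CIT and DEPDC1B lay outside the printed bases. The HAUS3 and HAUS5 stretches held none of these letters.

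RefSeq windows from 250 bases before to 50 bases after the start were matched for 32 of the 37 members, in 35 windows because ECT2, HAUS7 and HAUS8 had 2 each. They were searched on both strands for the CHR core, its variant, the CCAAT box and E2F-type letters in a pair of forms, TTCGCGC and, with another centre, TTGGCGC. The CHR core stood in 51.4% of the member windows against 15.2% of all 35116 windows, and the CCAAT box in 54.3% against 34.6%. The CHR variant stood in 5.71% against 1.45%, in PSRC1 and SHCBP1. A CCAAT box together with either CHR form stood in 42.9% of the member windows against 6.38% of all windows. The augmin genes differed from the other members in this respect. Either CHR form was found in 1 of the 8 HAUS genes, HAUS8, and in 17 of the 24 other members matched, and the CCAAT box with a CHR form in 0 of 8 HAUS genes and 15 of 24 others. TTGGCGC was found in 14.3% of the member windows against 3.04% of all windows, in HAUS2, HAUS5, HAUS7, NUSAP1 and ECT2. TTCGCGC was found in 2.86% against 2.24%, in HAUS7. Outside augmin, the matched members without either CHR form were ARHGAP11A, CKAP2, KNSTRN, MELK, NEK2, NUMA1 and TACC3. All of these but NUMA1 were called lower in 92.1 and higher in MP38. Whether a motif bears on a member's response was not tested. These are matches of letters and do not show that a factor binds there. The shares are descriptions, since the list is made of genes already known for their cell cycle expression.

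**Figure D1:**
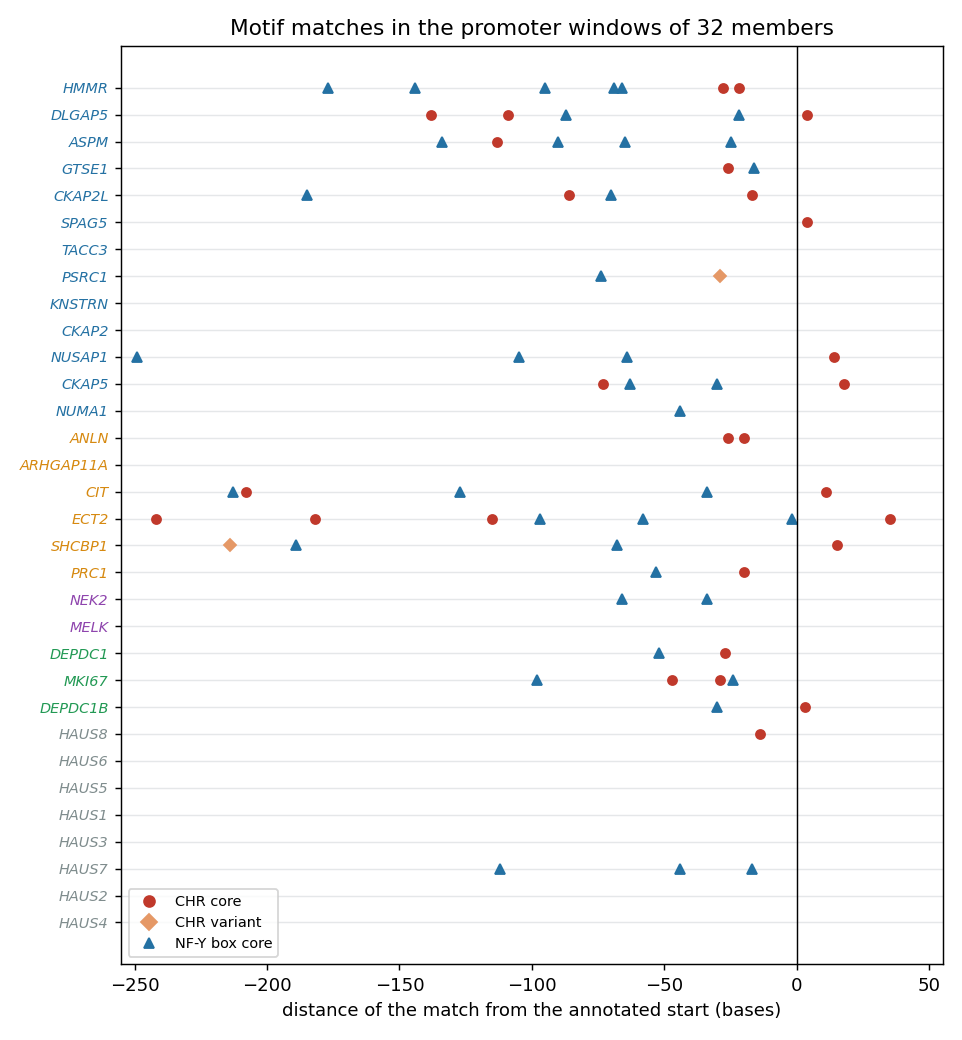
Position of CHR core letters and CCAAT letters on either strand in the RefSeq promoter windows of the 32 matched members, as distance in bases from the annotated start (x axis), with 1 row per gene grouped by role. Most CHR cores lie within about 50 bases of the start, and among the 8 HAUS genes only the HAUS8 row holds one.

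The libraries of 92.1 held 113370680 to 137664800 counts in VE-822 and 112374503 to 123705501 in DMSO, and those of MP38 held 54415628 to 60891725 in VE-822 and 61045071 to 63638976 in DMSO. Mitochondrial transcripts took 10.3% to 10.5% of counts in VE-822 and 9.11% to 9.32% in DMSO in 92.1, and 8.50% to 8.70% in VE-822 and 6.82% to 7.26% in DMSO in MP38.  The chi-square per gene between replicates was 2.00 to 5.39, but 58.4 and 59.0 where library 3 of 92.1 in DMSO was set against libraries 1 and 2. Without that library all 37 members were still called lower in 92.1. All 7 melanocyte markers listed (MITF, PMEL, MLANA, TYR, TYRP1, DCT, SOX10) reached 1 CPM in both lines. CPM are counts divided by the library's total, itself adjusted by a TMM factor, and set to a common scale. The 7 melanocyte markers summed to 19600 to 19900 CPM in VE-822 and 18800 to 19000 CPM in DMSO in 92.1. In MP38 they summed to 5450 to 5470 CPM in VE-822 and 4420 to 4590 CPM in DMSO. Single melanocyte markers went both ways by the test described below. In 92.1 1 rose and 2 fell, against 20.3% and 19.6% of all genes tested. In MP38 3 rose and 3 fell, against 26.9% and 25.4%. The 5 fibroblast markers summed to 5.34 to 5.96 CPM in VE-822 and 2.72 to 3.78 CPM in DMSO in 92.1, and to 1.5 to 2.17 CPM in VE-822 and 0.347 to 0.515 CPM in DMSO in MP38. The 5 leukocyte markers summed to 0.883 to 0.994 CPM in VE-822 and 0.545 to 0.756 CPM in DMSO in 92.1, and to 0.752 to 0.807 CPM in VE-822 and 0.563 to 0.600 CPM in DMSO in MP38. The 5 endothelial markers summed to 0.375 to 0.779 CPM in VE-822 and 0.0731 to 0.141 CPM in DMSO in 92.1, and to 3.14 to 3.91 CPM in VE-822 and 2.11 to 2.97 CPM in DMSO in MP38. The 5 epithelial markers summed to 0.855 to 0.872 CPM in VE-822 and 0.548 to 1.05 CPM in DMSO in 92.1, and to 9.74 to 11.1 CPM in VE-822 and 14.2 to 16.2 CPM in DMSO in MP38. None of these marker genes was at 0 throughout a line. The part of the mitochondrial share or of any of these marker sums in the results below was not tested.

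The set moved in opposite directions in the 2 lines. In 92.1 all 37 genes were lower in VE-822 than in DMSO, with a median log2 fold change of -1.72. In MP38 29 were higher, 2 were lower and 6 did not pass the test, with a median of 0.94. Log2 fold changes are VE-822 over DMSO, so positive values stand for more RNA in VE-822. A gene was called when edgeR's quasi-likelihood test gave it a Benjamini-Hochberg adjusted p, taken over every gene tested in the line, under 0.05. Summed over the 37 genes, 92.1 held 1112, 1093 and 989 CPM in VE-822 against 2969, 2895 and 2806 CPM in DMSO. MP38 held 2605, 2562 and 2603 CPM in VE-822 against 1448, 1451 and 1478 CPM in DMSO.

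These counts stand against a wide response of the transcriptome. Members were chosen with earlier results of these data known, so the shares of all genes are set beside them as a description. In 92.1, 39.9% of 22943 genes tested were called, 19.6% lower and 20.3% higher, and the median log2 fold change of all of them was 0.03. Scaling to library size only gave 5684 genes higher and 3534 lower in 92.1, in place of 4658 and 4498, and still 37 members lower. Of the 37 members, 31 were lower in 92.1 by at least 1 on the log2 scale, against 3.21% of all genes tested. In MP38, 52.3% of 21415 genes were called, 26.9% higher and 25.4% lower, with a median of -0.01. Of the members, 14 were higher in MP38 by at least 1, against 4.57% of all genes. The 29 members that were higher in MP38 and lower in 92.1 compare with 8.32% of the 19146 genes tested in both lines. The VE-822 and DMSO libraries did not overlap for any of the 37 members in 92.1, where 25.2% of all genes were lower without overlap. In MP38 30 members were higher without overlap, against 29.7% of all genes, 2 were lower without overlap, against 29%, and 5 overlapped.

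**Figure D2:**
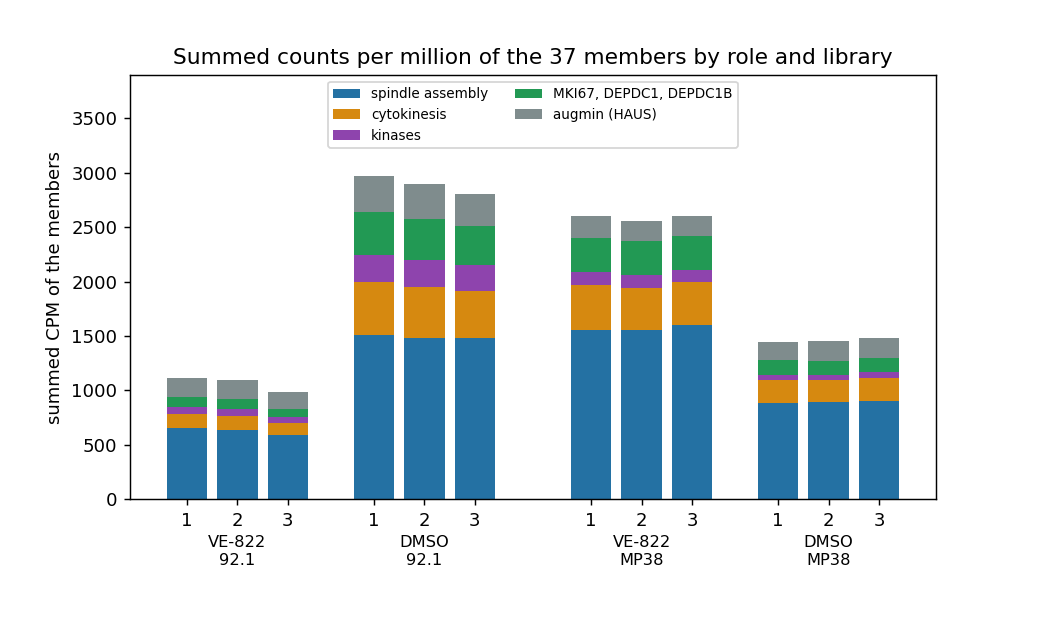
Summed level in CPM (y axis, from 0) of the 37 genes in each of the 12 libraries, stacked by role. The 3 VE-822 libraries of 92.1 hold 989 to 1112 CPM against 2806 to 2969 CPM in DMSO, and those of MP38 hold 2562 to 2605 CPM against 1448 to 1478 CPM.

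MKI67 (ENSG00000148773.14, chr10:128096659-128126423, minus strand) is placed here, as are the other genes, by the deposited coordinates on GRCh38.p13. It encodes Ki-67, which coats mitotic chromosomes and serves as the common marker of proliferating cells. In 92.1 it had 65.2, 64.8 and 50.9 CPM in VE-822 against 299, 289.5 and 263 CPM in DMSO. In MP38 it had 257, 249.96 and 252 CPM in VE-822 against 111, 109 and 115 CPM in DMSO. The VE-822 libraries of 92.1 were thus the lowest of the 12 and the groups of each line lay far apart. The log2 fold change was -2.23 ± 0.101 in 92.1 (SE, edgeR adjusted p = 1.36e-06), the largest fall of any member, and 1.18 ± 0.0370 in MP38 (adjusted p = 9.68e-16). Levels in DMSO differed as well, at 284 ± 18.9 CPM in 92.1 and 111 ± 2.98 CPM in MP38 (SD, n = 3). Each line was scaled on its own, so this comparison across lines is a description.

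DEPDC1 and DEPDC1B, DEP-domain proteins expressed in mitotic cells, moved like MKI67. DEPDC1 (ENSG00000024526.17, chr1:68474152-68497221, minus strand) had 14.0, 13.6 and 11.4 CPM in VE-822 against 48.5, 45.1 and 51.9 CPM in DMSO in 92.1, and 32.3, 32.7 and 30.8 CPM in VE-822 against 8.757, 7.898 and 9.499 CPM in DMSO in MP38. Its changes were -1.90 ± 0.0913 in 92.1 (adjusted p = 1.63e-06) and 1.87 ± 0.0615 in MP38 (adjusted p = 1.89e-15), so that the line with the higher level in DMSO had the lower one in VE-822. DEPDC1B had 10.98, 11.37 and 9.69 CPM in VE-822 against 44.3, 43.8 and 40.9 CPM in DMSO in 92.1. Its MP38 values were 27.6, 27.1 and 26.2 CPM in VE-822 against 11.4, 12.3 and 12.1 CPM in DMSO, and its changes were -2.01 ± 0.0755 in 92.1 and 1.18 ± 0.0531 in MP38 (adjusted p = 7.04e-07 and 2.32e-13).

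**Figure D3:**
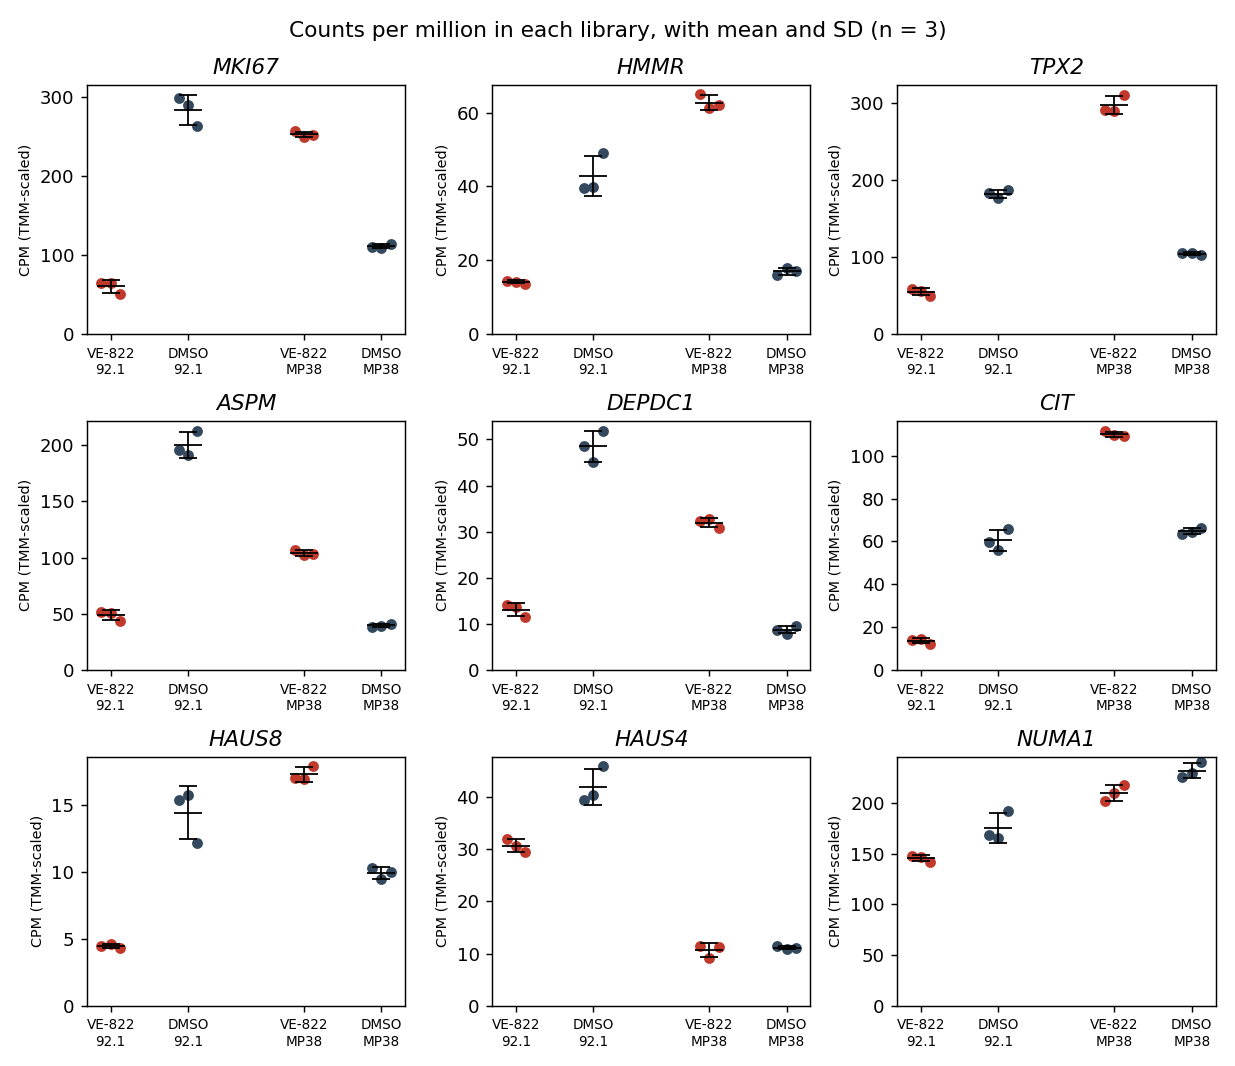
Level in CPM of 9 members in each library (points), in VE-822 and DMSO of 92.1 and MP38, with the mean of 3 libraries and its SD. MKI67, HMMR, TPX2, ASPM, DEPDC1, CIT and HAUS8 lie below DMSO in 92.1 and above it in MP38, HAUS4 lies below DMSO in 92.1 and overlaps it in MP38, and NUMA1 lies below DMSO in both lines.

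Among the 16 spindle proteins outside augmin, all 16 fell in 92.1, with a median log2 fold change of -1.62. In MP38 14 rose, NUMA1 fell and NUSAP1 did not pass the test, with a median of 0.94. Of the pole proteins, HMMR, a microtubule-binding protein that helps focus spindle poles, rose most in MP38. HMMR (ENSG00000072571.20, chr5:163460203-163491941, plus strand) had 14.5, 14.2 and 13.7 CPM in VE-822 against 39.5, 39.9 and 49.0 CPM in DMSO in 92.1, and 64.9, 61.1 and 62.0 CPM in VE-822 against 15.98, 17.81 and 17.19 CPM in DMSO in MP38. The libraries of the 2 treatments were well apart in both lines, in opposite order. The log2 fold changes were -1.60 ± 0.0898 in 92.1 (adjusted p = 3.72e-06) and 1.88 ± 0.0479 in MP38 (adjusted p = 8.22e-17).

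ASPM, which holds microtubule minus ends at the poles, fell most among the spindle proteins of 92.1. ASPM (ENSG00000066279.19, chr1:197084121-197146694, minus strand) had 51.7, 50.9 and 43.4 CPM in VE-822 against 195, 191 and 213 CPM in DMSO in 92.1, a change of -2.04 ± 0.0777 (adjusted p = 7.26e-07). MP38 libraries had 107, 102 and 103 CPM in VE-822 against 38.5, 39.4 and 41.2 CPM in DMSO, a change of 1.39 ± 0.0399 (adjusted p = 3.30e-16). Its level in MP38 with VE-822 thus stayed under that of 92.1 in DMSO. TPX2, which activates Aurora A and starts microtubules near chromosomes, averaged 54.9 ± 4.58 CPM in VE-822 against 182 ± 5.49 CPM in DMSO in 92.1. In MP38 TPX2 averaged 297 ± 11.7 CPM in VE-822 against 105 ± 1.58 CPM in DMSO (SD, n = 3), the highest level of any member but CKAP5 in that group.

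NUMA1, which anchors dynein at spindle poles and at the cell cortex, was the exception among the pole proteins. NUMA1 (ENSG00000137497.18, chr11:72002864-72080693, minus strand) had 148, 147 and 142 CPM in VE-822 against 169, 166 and 192 CPM in DMSO in 92.1, a change of -0.27 ± 0.0627 (adjusted p = 0.00883). In MP38 it had 202, 210.2 and 217 CPM in VE-822 against 226, 229 and 241 CPM in DMSO, a change of -0.14 ± 0.0396 (adjusted p = 0.00441). It therefore fell in both lines, by small amounts, with groups that did not overlap. NUMA1 is known to be present throughout interphase in the nucleus, unlike most members. Of its exonic bases in GENCODE 29, 24.9% are shared with genes on the other strand, IL18BP and LRTOMT among them, and the sources do not state whether counting used strand.

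CKAP5 and TACC3 act on microtubule growth and cross-linking. CKAP5, the microtubule polymerase also called chTOG, averaged 143 ± 4.96 CPM in VE-822 against 233 ± 5.08 CPM in DMSO in 92.1, and 413 ± 9.90 CPM in VE-822 against 256 ± 3.95 CPM in DMSO in MP38. Its log2 fold changes, -0.70 ± 0.0466 and 0.69 ± 0.0372, were close in size and opposite in sign. TACC3, which links CKAP5 and clathrin into bridges between spindle microtubules, changed by -1.57 ± 0.0998 in 92.1 and 0.94 ± 0.0414 in MP38. The locus of TACC3 overlaps that of TMEM129, which averaged 4340 counts against 5680 for TACC3. In GENCODE 29 the exons of TACC3 share 0 bases with another gene. They cover 6523 bases there, however, against a deposited feature length of 8825, and whether reads were shared was not tested.

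NUSAP1, which bundles microtubules near chromosomes, had few reads. It had 0.490, 0.467 and 0.491 CPM in VE-822 against 0.822, 1.31 and 0.939 CPM in DMSO in 92.1, a change of -1.09 ± 0.204 (adjusted p = 0.00318). The MP38 values were 0.257, 0.280 and 0.318 CPM in VE-822 against 0.158, 0.193 and 0.280 CPM in DMSO, with a log2 fold change of 0.43 ± 0.367 (adjusted p = 0.345) and groups that overlapped. Its lowest count in a library was 10. In GENCODE 29, 62.2% of the exonic bases of NUSAP1 also belong to AC087721.2, a gene on the same strand. By that annotation a read there cannot be given to NUSAP1 alone. Its exons cover 2875 bases in GENCODE 29 against a deposited feature length of 3608, so the share may differ in the annotation used for counting.

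The other spindle proteins followed the main pattern. DLGAP5, which stabilises kinetochore fibres, changed by -1.98 ± 0.112 in 92.1 and 1.46 ± 0.0457 in MP38. CKAP2, a microtubule stabiliser, changed by -1.19 ± 0.0681 and 0.65 ± 0.0413, and its relative CKAP2L by -2.01 ± 0.119 and 0.83 ± 0.0779. SPAG5 (astrin), which guards the grip of kinetochores on microtubules, changed by -1.64 ± 0.0890 in 92.1 and 0.97 ± 0.0412 in MP38. Its partner KNSTRN changed by -1.15 ± 0.0660 and 0.94 ± 0.0495. FAM83D, which brings casein kinase 1 alpha to the spindle, changed by -1.57 ± 0.105 and 1.11 ± 0.0505. PSRC1, a regulator of microtubule turnover in the spindle, changed by -1.87 ± 0.0657 in 92.1 and 0.59 ± 0.0469 in MP38, a fall much larger than its rise. GTSE1, which stabilises microtubules by restraining the depolymerase KIF2C, changed by -1.84 ± 0.0976 and 1.26 ± 0.0425. TROAP, a protein needed for bipolar spindles, changed by -1.91 ± 0.0712 and 0.91 ± 0.0442. Each of these changes passed the test, and the highest edgeR adjusted p-value among them was 1.02e-05 in 92.1 (FAM83D) and 1.60e-08 in MP38 (CKAP2L).

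All 7 cytokinesis genes fell in 92.1 and rose in MP38, with median log2 fold changes of -1.86 and 0.95. CIT, the citron kinase of the midbody, fell most in 92.1 and rose least in MP38. CIT (ENSG00000122966.17, chr12:119685791-119877320, minus strand) had 14.2, 14.2 and 12.2 CPM in VE-822 against 59.6, 56.2 and 65.7 CPM in DMSO in 92.1. MP38 libraries held 111, 109.7 and 109 CPM in VE-822 against 63.6, 64.6 and 66.3 CPM in DMSO. Its changes were -2.16 ± 0.0859 in 92.1 (adjusted p = 8.09e-07) and 0.76 ± 0.0365 in MP38 (adjusted p = 5.60e-13). In DMSO the groups of the 2 lines overlapped for CIT, so the lines parted only in VE-822.

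ANLN, the anillin scaffold of the contractile ring, rose most among the cytokinesis genes of MP38. ANLN (ENSG00000011426.11, chr7:36389821-36453791, plus strand) had 34.0, 35.2 and 29.9 CPM in VE-822 against 139, 132 and 108 CPM in DMSO in 92.1, a change of -1.94 ± 0.101 (adjusted p = 2.41e-06). In MP38 it had 51.8, 49.6 and 47.4 CPM in VE-822 against 21.2, 19.8 and 22.0 CPM in DMSO, a change of 1.24 ± 0.0493 (adjusted p = 3.26e-14). The DMSO level of 92.1 was therefore above every MP38 library, and the VE-822 level was above MP38 in DMSO but under MP38 in VE-822.

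PRC1, which cross-links antiparallel microtubules in the central spindle, had few reads, as NUSAP1 did. PRC1 had 0.612, 0.438 and 0.584 CPM in VE-822 against 1.498, 1.286 and 1.628 CPM in DMSO in 92.1, a change of -1.43 ± 0.176 (adjusted p = 0.000332). Its MP38 values were 3.17, 2.60 and 2.68 CPM in VE-822 against 1.45, 1.29 and 1.91 CPM in DMSO, a change of 0.86 ± 0.154 (adjusted p = 8.43e-05). The directions were those of the other cytokinesis genes, at levels near the lowest of the set. In GENCODE 29, 58.4% of its exonic bases are shared, with AC068831.7 on the same strand and PRC1-AS1 on the other, so its counts are uncertain.

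RACGAP1, the GTPase-activating subunit of centralspindlin, averaged 26.2 ± 1.95 CPM in VE-822 against 86.4 ± 1.29 CPM in DMSO in 92.1, and 81.0 ± 1.71 CPM in VE-822 against 41.0 ± 1.59 CPM in DMSO in MP38. ECT2, the exchange factor that centralspindlin recruits to activate RhoA, changed by -1.86 ± 0.0662 in 92.1 and 0.95 ± 0.0485 in MP38. SHCBP1, a midbody protein that binds centralspindlin, changed by -1.73 ± 0.115 and 0.81 ± 0.0480. ARHGAP11A, a GTPase-activating protein for RhoA, changed by -1.98 ± 0.108 and 1.13 ± 0.0512. ARHGAP11A has a related human gene, ARHGAP11B, which moved in the same directions at a far lower level. ARHGAP11B averaged 0.658 ± 0.129 CPM in VE-822 against 2.17 ± 0.159 CPM in DMSO in 92.1. In MP38 ARHGAP11B averaged 1.42 ± 0.155 CPM in VE-822 against 0.840 ± 0.199 CPM in DMSO. Reads from bases that both genes share could have been given to either.

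All 3 kinases fell in 92.1 and rose in MP38, with log2 fold changes of -2.11 to -2.02 and of 1.13 to 1.45. NEK2, which parts the centrosomes at the start of mitosis, had 13.14, 12.99 and 10.91 CPM in VE-822 against 46.9, 45.4 and 57.8 CPM in DMSO in 92.1. In MP38 NEK2 had 27.7, 27.2 and 28.3 CPM in VE-822 against 10.2, 9.67 and 10.8 CPM in DMSO. Its changes were -2.02 ± 0.111 in 92.1 (adjusted p = 3.32e-06) and 1.44 ± 0.0550 in MP38 (adjusted p = 1.75e-14). The levels in VE-822 in MP38 were thus still under those of 92.1 in DMSO.

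MELK, a kinase of the AMPK family that peaks in mitosis, had 14.2, 14.4 and 13.4 CPM in VE-822 against 64.2, 64.5 and 52.0 CPM in DMSO in 92.1, a change of -2.11 ± 0.0903 (adjusted p = 1.12e-06). MP38 libraries had 41.6, 40.6 and 40.5 CPM in VE-822 against 19.3, 17.4 and 19.3 CPM in DMSO, a change of 1.13 ± 0.0491 (adjusted p = 1.24e-13). PBK, a mitotic MAP kinase kinase-like enzyme also called TOPK, stood highest of the 3 in DMSO in 92.1. It had 34.2, 33.4 and 29.1 CPM in VE-822 against 136, 134 and 126 CPM in DMSO in 92.1, a change of -2.03 ± 0.0709 (adjusted p = 6.32e-07). In MP38 PBK had 51.6, 50.1 and 47.7 CPM in VE-822 against 19.0, 17.6 and 18.1 CPM in DMSO, a change of 1.45 ± 0.0476 (adjusted p = 1.89e-15).

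Augmin was the group that departed from the rest. All 8 HAUS genes fell in 92.1, with a median ratio of VE-822 to DMSO of 0.499, against 0.275 for the 29 other members. In MP38 only HAUS8 and HAUS6 rose, HAUS7 fell and the other 5 did not pass the test. The median ratio of VE-822 to DMSO in MP38 was 1.05, against 1.97 for the 29 others. On the log2 scale these medians were 0.07 and 0.98. The HAUS genes took 15.7% to 16.4% of the summed CPM of the set in VE-822 and 10.6% to 11.2% in DMSO in 92.1. In MP38 they took 7.17% to 7.74% in VE-822 and 11.8% to 12.3% in DMSO. These shares are descriptions, and no test of the HAUS genes against the others was made.

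HAUS8, which joins augmin to microtubules, was the augmin gene that moved most in both lines. HAUS8 (ENSG00000131351.15, chr19:17049729-17075625, minus strand) had 4.50, 4.58 and 4.32 CPM in VE-822 against 15.4, 15.7 and 12.2 CPM in DMSO in 92.1, a change of -1.69 ± 0.106 (adjusted p = 6.99e-06). In MP38 it had 17.0, 16.9 and 17.9 CPM in VE-822 against 10.29, 9.442 and 9.996 CPM in DMSO, a change of 0.80 ± 0.0600 (adjusted p = 5.78e-10). HAUS6, which contacts the gamma-tubulin ring complex through NEDD1, averaged 45.1 ± 1.48 CPM in VE-822 against 95.8 ± 10.7 CPM in DMSO in 92.1. In MP38 HAUS6 averaged 74.8 ± 4.64 CPM in VE-822 against 67.2 ± 1.21 CPM in DMSO, a rise of 0.16 ± 0.0433 (adjusted p = 0.00490). That call was lost in all 3 limma settings, with adjusted p of 0.139 to 0.278.

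HAUS1 to HAUS5 fell in 92.1 and did not pass the test in MP38. HAUS1 had 17.71, 17.50 and 15.99 CPM in VE-822 against 33.5, 33.5 and 31.9 CPM in DMSO in 92.1, and 28.4, 26.5 and 25.9 CPM in VE-822 against 25.8, 27.5 and 28.3 CPM in DMSO in MP38. HAUS2 had 19.2, 18.9 and 18.9 CPM in VE-822 against 28.8, 28.0 and 23.9 CPM in DMSO in 92.1, and 23.6, 22.5 and 22.0 CPM in VE-822 against 20.7, 23.9 and 21.3 CPM in DMSO in MP38. For both genes the groups lay apart in 92.1 and overlapped in MP38. The log2 fold change of HAUS1 was -0.95 ± 0.0622 in 92.1 (adjusted p = 8.84e-06) and -0.01 ± 0.0508 in MP38 (adjusted p = 0.834). That of HAUS2 was -0.50 ± 0.0763 in 92.1 (adjusted p = 0.00107) and 0.05 ± 0.0565 in MP38 (adjusted p = 0.494).

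HAUS3 had 26.1, 26.5 and 24.1 CPM in VE-822 against 45.9, 43.5 and 42.8 CPM in DMSO in 92.1, and 14.7, 14.1 and 13.5 CPM in VE-822 against 12.4, 13.8 and 13.6 CPM in DMSO in MP38. HAUS5 had 28.8, 28.6 and 25.4 CPM in VE-822 against 62.1, 60.2 and 55.4 CPM in DMSO in 92.1, and 25.4, 25.4 and 24.1 CPM in VE-822 against 23.8, 23.7 and 23.0 CPM in DMSO in MP38. In MP38 the HAUS5 groups did not overlap, yet its log2 fold change of 0.09 ± 0.0473 missed the threshold (adjusted p = 0.125), as did that of HAUS3, 0.08 ± 0.0620 (adjusted p = 0.284). In 92.1 the changes were -0.79 ± 0.0599 for HAUS3 (adjusted p = 2.17e-05) and -1.10 ± 0.0697 for HAUS5 (adjusted p = 7.35e-06).

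HAUS4 (ENSG00000092036.19, chr14:22946228-22957161, minus strand) had 32.02, 30.59 and 29.50 CPM in VE-822 against 39.5, 40.4 and 45.9 CPM in DMSO in 92.1, a change of -0.45 ± 0.0706 (adjusted p = 0.00125). The MP38 values were 11.4, 9.17 and 11.4 CPM in VE-822 against 11.4, 10.8 and 11.1 CPM in DMSO, with a log2 fold change of -0.06 ± 0.0773 (adjusted p = 0.551). Its level in 92.1 was above that of MP38 in every library, and of the augmin genes it fell least. In GENCODE 29, 35.9% of its exonic bases are shared with other genes.

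HAUS7, which is encoded on the X chromosome, had few reads and the only fall among the augmin genes of MP38. HAUS7 had 0.713, 0.775 and 0.618 CPM in VE-822 against 1.60, 1.46 and 1.35 CPM in DMSO in 92.1, a change of -1.06 ± 0.146 (adjusted p = 0.000626). MP38 libraries held 1.27, 1.07 and 0.847 CPM in VE-822 against 1.36, 1.62 and 1.51 CPM in DMSO, a change of -0.50 ± 0.181 (adjusted p = 0.0263). The MP38 call rested on a narrow margin. It was lost without VE-822 library 2 (adjusted p = 0.0581), VE-822 library 3 (adjusted p = 0.129), DMSO library 2 (adjusted p = 0.0901) or DMSO library 3 (adjusted p = 0.0521), and by DESeq2 (adjusted p = 0.0971). In GENCODE 29, 35.7% of the exonic bases of HAUS7 are shared with TREX2.

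**Figure D4:**
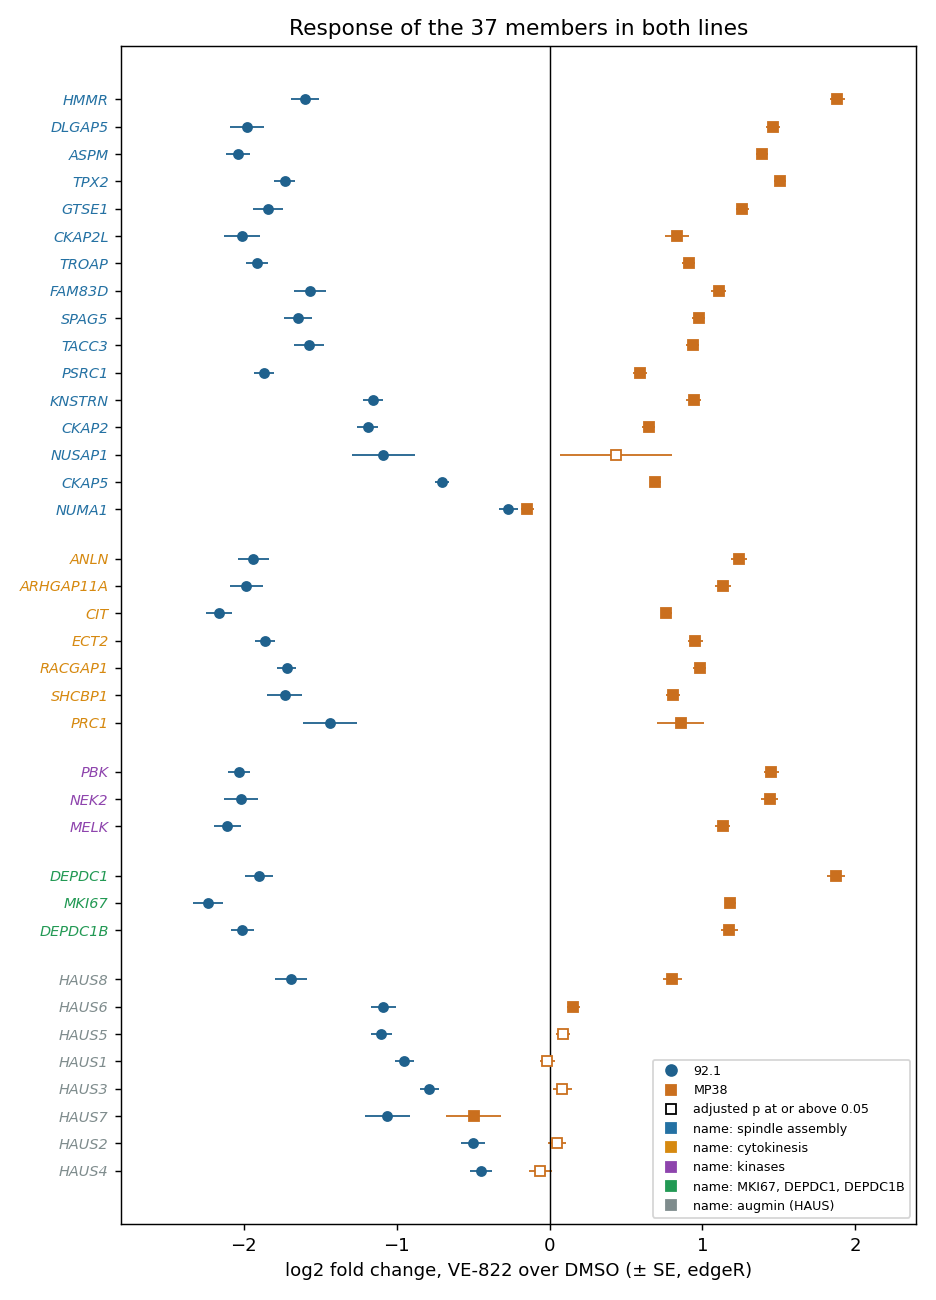
Log2 fold change of VE-822 against DMSO (x axis, bars are SE) of the 37 genes, 1 row each and grouped by role, in 92.1 and MP38. Filled points passed the test and open points did not. All 92.1 points lie left of 0, and in MP38 the open points are HAUS1 to HAUS5 and NUSAP1.

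The difference between the lines was tested directly, as the 92.1 response minus the MP38 response in a joint fit of all 12 libraries. It was negative for all 37 members and passed the test for 35, with a median of -2.64, with 0 members above 0 past the test. Of 24958 genes tested 40.9% were called, 18.8% lower and 22.1% higher, and the median of all was 0.11. It was called and lower by at least 1 for 31 members, against 4.97% of all genes tested. HAUS7 and NUMA1 did not pass, with differences of -0.53 ± 0.236 (adjusted p = 0.0838) and -0.10 ± 0.0769 (adjusted p = 0.339). The largest differences in size were those of DEPDC1, -3.74 ± 0.120, PBK, -3.45 ± 0.0922, and HMMR, -3.45 ± 0.106. The smallest, after NUMA1, were HAUS4, -0.36 ± 0.113 (adjusted p = 0.0175), and HAUS2, -0.52 ± 0.104 (adjusted p = 0.000783). The call for HAUS4 was lost by limma on log2(FPKM + 0.1), where the adjusted p was 0.0654. It was also lost by limma on log2(FPKM + 1) with no filter, where the adjusted p was 0.0651.

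Across the 37 genes, the log2 fold change in 92.1 and that in MP38 went against each other, with Pearson's r of -0.765 and Spearman's rho of -0.698. Without the 8 HAUS genes, r was -0.619 and rho -0.447 over 29 genes. These values describe genes of the same libraries, which are not independent replicates, and the 2 lines share no library. Members that fell most in 92.1 thus tended to be those that rose most in MP38, with exceptions. CIT, PSRC1 and CKAP2L had log2 fold changes of -2.16 to -1.87 in 92.1 and of 0.59 to 0.83 in MP38. HMMR had the reverse order, with the largest rise in MP38 and a fall in 92.1 that was smaller than the set's median.

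**Figure D5:**
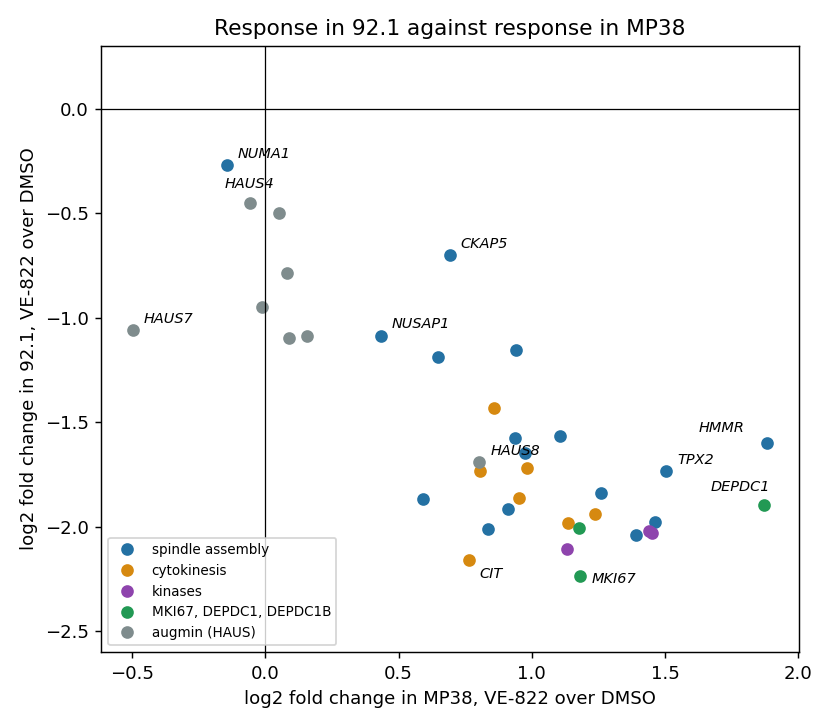
Log2 fold change of VE-822 against DMSO in MP38 (x axis) and in 92.1 (y axis) for the 37 genes, coloured by role. Most points lie at the lower right, higher in MP38 and lower in 92.1, while NUMA1 and the HAUS genes other than HAUS8 lie near 0 on the x axis or left of it.

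The order of levels between the lines turned round with treatment. Counts were scaled within each line's table, so levels set across lines are descriptions. In VE-822, 32 members were lower in 92.1 than in MP38 without overlap of the libraries and 5 were higher, against 46.6% and 35.6% of all genes. In DMSO, 31 members were higher in 92.1 than in MP38 and 2 were lower, against 34.2% and 45.5% of all genes. The 5 that stayed higher in 92.1 in VE-822 were HAUS3, HAUS4, HAUS5, NUSAP1 and CKAP2. The 2 lower in DMSO were NUMA1 and CKAP5, while HAUS7, PRC1, CIT and SHCBP1 overlapped.

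Levels per transcript length were taken from the deposited FPKM. In 92.1 with VE-822, CKAP5 (17.1 ± 0.321 FPKM), TPX2 (15.6 ± 1.06), PBK (15.4 ± 1.09) and CKAP2 (15.2 ± 0.728) led, and the last 3 did not differ beyond their spread. In 92.1 with DMSO the order was PBK (59.9 ± 2.68 FPKM), TPX2 (49.3 ± 1.29), CKAP2 (33.1 ± 2.36) and CKAP5 (26.6 ± 0.576), each apart from the next. MP38 with VE-822 was led by TPX2 (81.4 ± 1.44 FPKM), CKAP5 (47.7 ± 0.560) and PBK (22.9 ± 1.39). MP38 with DMSO was led by CKAP5 (30.4 ± 0.591 FPKM) and TPX2 (29.4 ± 0.528), followed by NUMA1 (15.4 ± 0.501) and HAUS1 (13 ± 0.620). HAUS7, NUSAP1 and PRC1 were the lowest 3 of the 37 in all 4 groups, at 0.0587 to 0.504 FPKM. CIT stood low per length in every group partly by construction, because its deposited feature length is 28605 bases, while its exons in GENCODE 29 cover 13229.

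Genes that work beside these proteins were looked at in 7 other lists. The 7 genes listed as mitotic kinases, passenger proteins and a kinase activator all fell in 92.1 and all rose in MP38. Among them AURKB, the passenger kinase, averaged 13.8 ± 1.47 CPM in VE-822 against 67.3 ± 5.57 CPM in DMSO in 92.1, and PLK1 averaged 107 ± 5.54 CPM in VE-822 against 36.0 ± 0.332 CPM in DMSO in MP38. All 12 mitotic kinesins fell in 92.1 (median -2.01) and rose in MP38 (median 1.06), as did all 18 kinetochore and checkpoint genes (medians -2.05 and 0.895). These medians are on the log2 scale and lie on the same sides as those of the members. Of all genes tested, 19.6% were called lower in 92.1 and 26.9% higher in MP38.

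The next 4 lists hold genes that also work outside mitosis. Over all genes tested 19.6% fell and 20.3% rose in 92.1, and 25.4% fell and 26.9% rose in MP38. Of 11 genes of the gamma-tubulin ring complex, which augmin recruits, 7 fell and 1 rose in 92.1 (median -0.26), and 3 fell and 3 rose in MP38 (median 0.04). In 92.1 4 fell without VE-822 library 3, and in MP38 5 fell and 2 rose when libraries were scaled by total count alone. MZT1, a small subunit of that complex, averaged 30.7 ± 1.82 CPM in VE-822 against 64.6 ± 3.26 CPM in DMSO in 92.1, and 35.7 ± 2.47 CPM in VE-822 against 22.4 ± 0.701 CPM in DMSO in MP38. Of 16 tubulins and microtubule-binding proteins, 8 fell and 2 rose in 92.1 (median -0.23), and 3 fell and 8 rose in MP38 (median 0.15). The number that fell in 92.1 was 6 in each limma setting, 10 with no filter on low counts and 11 without DMSO library 3. TUBA1B, an alpha-tubulin, averaged 117 ± 4.76 CPM in VE-822 against 297 ± 50.4 CPM in DMSO in 92.1, with the widest spread in DMSO, where library 3 had 239 CPM. Tubulin genes have near-identical copies, so their single values are uncertain.

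Of 14 actomyosin and septin genes, which power the contractile ring, 9 fell and 2 rose in 92.1 (median -0.21), and 3 fell and 9 rose in MP38 (median 0.34). DIAPH3, a formin that builds actin filaments, changed by -2.14 ± 0.0808 in 92.1 and 1.19 ± 0.0567 in MP38. Of the 15 ESCRT and abscission genes tested in 92.1, 2 fell and 2 rose (median 0.04), and of 16 in MP38, 2 fell and 10 rose (median 0.15). The counts of both lines changed with the libraries and settings used. In 92.1, 7 fell and 3 rose without DMSO library 3. There 0 rose without VE-822 library 1, VE-822 library 2 or DMSO library 2, and 1 rose without VE-822 library 3. With scaling by total count alone 5 rose in 92.1. The number that rose in MP38 was 7 with that scaling, in each limma setting and without DMSO library 1. It was 8 without VE-822 library 2 or DMSO library 2 of MP38. CEP55, which brings ESCRT proteins to the midbody, averaged 18.4 ± 1.94 CPM in VE-822 against 69.4 ± 5.53 CPM in DMSO in 92.1, and 70.5 ± 2.46 CPM in VE-822 against 24.9 ± 0.441 CPM in DMSO in MP38. CEP55 was the only gene of its list whose log2 fold change reached 1 in size in either line.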

How the data were processed

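Per the submitters' processing notes, reads were mapped to GRCh38.p13, and the tools named are STAR 2.7.11a, featureCounts 2.0.6, cutadapt 4.8, MultiQC 1.7 and FastQC 0.12.1; parameters and the use of strand are not given in the sources used here. The authors deposited raw counts per gene and FPKM for each line. The deposited FPKM equal those counts after division by feature length and library total. Exon overlaps were taken from GENCODE 29, whose exon lengths differ from the deposited feature lengths for some members. Other members with shared exonic bases there include HAUS2 (16.5%), ARHGAP11A (15.5%) and SPAG5 (11.8%). From the counts, edgeR 4.0.16 (R 4.3.3) kept genes by filterByExpr (minimum count 10, minimum total 15), scaled by TMM, and applied the quasi-likelihood F test within each line. The difference between lines was an interaction over 12 libraries. SE come from the F statistic. Alternatives were other scaling, no filter, DESeq2 1.42.0, limma 3.58.1 on log2(FPKM + 1) and log2(FPKM + 0.1), a replicate block and leaving out each library. Values in every library are printed for MKI67, for the extremes of each role, for members that did not move with most members, and for the 3 highest and 3 lowest differences. Genes of other lists are named among the 3 largest called changes per list and line. Members and lists were chosen with earlier results of these data known.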

Additional observations from a re-analysis of the deposited data

Results flagged for a closer look

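The responses of the 2 lines differed by the test of the difference itself (92.1 response minus MP38 response, edgeR, adjusted over all genes tested) for 35 of the 37 genes, and each value is on the log2 scale. Among spindle proteins the difference was -3.45 for HMMR, -3.41 for DLGAP5, -3.40 for ASPM, -3.21 for TPX2, -3.07 for GTSE1, -2.82 for CKAP2L, -2.79 for TROAP and -2.64 for FAM83D. It was -2.59 for SPAG5, -2.48 for TACC3, -2.43 for PSRC1, -2.07 for KNSTRN, -1.81 for CKAP2, -1.49 for NUSAP1 and -1.36 for CKAP5. Among cytokinesis genes it was -3.15 for ANLN, -3.09 for ARHGAP11A, -2.89 for CIT, -2.79 for ECT2, -2.67 for RACGAP1, -2.51 for SHCBP1 and -2.26 for PRC1. The kinases had -3.45 for PBK, -3.43 for NEK2 and -3.21 for MELK, and the other 3 genes had -3.74 for DEPDC1, -3.39 for MKI67 and -3.16 for DEPDC1B. Among augmin genes the difference was -2.47 for HAUS8, -1.21 for HAUS6, -1.16 for HAUS5, -0.905 for HAUS1, -0.838 for HAUS3, -0.520 for HAUS2 and -0.361 for HAUS4. Dose and line cannot be told apart in any of them.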

How the results depend on the processing

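Under the 14 alternatives run in each line, the members called lower in 92.1 numbered 37, or 35 by limma on log2(FPKM + 1) with no filter, where NUMA1 (adjusted p = 0.0843) and NUSAP1 (adjusted p = 0.0720) were lost. In MP38 27 to 29 members were called higher. The number called lower in MP38 was 1 in place of 2, without HAUS7, by DESeq2, by limma on log2(FPKM + 0.1) and by limma with no filter, and ranged from 1 to 2 when 1 library was left out. PRC1 was lost in MP38 by limma with no filter (adjusted p = 0.0555), and HAUS6 in all 3 limma settings. The difference between lines was called for 34 to 36 members; that of HAUS7 passed without 92.1 DMSO library 3 (-0.635, adjusted p = 0.0328) or without MP38 VE-822 library 3 (-0.720, adjusted p = 0.0238). Signs turned for uncalled values alone, in MP38: HAUS1, -0.0144 as reported, was 0.0147 without VE-822 library 3 and 0.0107 without DMSO library 3, with a lowest value of -0.0542, and HAUS4, -0.0594 as reported, was 0.0392 without VE-822 library 2, with a lowest value of -0.11. Over all genes, 6899 were lower in 92.1 without DMSO library 3 and 2757 by limma with no filter, against 4498 as reported. The replicate block gave 37 members called in 92.1, 31 in MP38 and 35 for the difference, and changed no member's call. Deviations of same-numbered libraries correlated at -0.102 to 0.111, so the numbers were not taken to pair the samples; in 92.1, but not in MP38, each VE-822 library correlated best with its own number. NUSAP1, PRC1 and HAUS7 rest on the fewest reads per length. The causes of these changes were not tested.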
